A study of Sus scrofa with 18 samples.

Results

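The microRNAs (miRNAs) of the miR-23, miR-27 and miR-24 families were examined in small RNA libraries from the backfat of 18 Italian Large White pigs. Members were every mature miRNA in the deposited count table named miR-23a, miR-23b, miR-27a, miR-27b or miR-24, with any arm or copy suffix, and a sequence listed more than once under a miRNA entered a single time. The table held 8 such miRNAs of 240, with 1003 of its 16636 distinct read sequences. All 8 had reads in both backfat classes, and 876 of their sequences were seen in pigs of high backfat and 866 in pigs of low backfat.

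The 9 pigs of high backfat deposition were 5 castrated males and 4 females aged 241 ± 4.47 days (SD), and the 9 pigs of low deposition were 4 castrated males and 5 females aged 243 ± 6.04 days. All weighed 150 to 160 kg, shared housing and diet, and were sampled at a slaughterhouse, and the labels name no treatment or genetic change. How the classes were set, and whether pigs were related, is not given in the labels. Each library carried its own animal number and was treated as a separate pig. The sample titles speak of mRNA, but the kit used and the reads themselves are of small RNA. Libraries held 9601510 to 34588252 reads over distinct sequences, and the library codes formed 4 runs (U966 to U969, U074 to U077, U134 to U139 and AC485 to AC488), of which the last held 1 high and 3 low libraries; what the runs stand for is not given in the labels.

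A miRNA is cut from a hairpin precursor, of which either arm can be kept, and finds its target messages mainly through the seed near its 5′ end. The 3 families are transcribed together from a pair of paralogous clusters, so that a single primary transcript yields a miR-23, a miR-27 and a miR-24. In mouse and human cell cultures miR-27a and miR-27b restrain fat cell differentiation, with the fat cell regulator PPARG among their known targets, while miR-23 and miR-24 are best known from muscle cells and from endothelial cells, where the clusters act in vessel growth. In a RefSeq annotation of Sscrofa11.1, used here for names and chromosomes only, all 6 of 6 hairpins were found. MIR23A, MIR27A and MIR24-1 lay on the same chromosome, and MIR24-2, MIR27B and MIR23B together on a different chromosome. Distances between them were not measured. In the human genome the numbering of the miR-24 copies is the other way round.

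The annotated mature sequences of the deposited table are shown because the paralogs differ so little. They are written 5′ to 3′ with T for U, and capitals mark the seed, bases 2 to 8 from the 5′ end. The prefix ssc- stands for the pig, Sus scrofa, and is left out elsewhere where the name is clear.
ssc-miR-23a: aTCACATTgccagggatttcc
ssc-miR-23b: aTCACATTgccagggattacca
ssc-miR-27a: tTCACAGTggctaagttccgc
ssc-miR-27b-3p: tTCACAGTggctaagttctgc
ssc-miR-24-3p: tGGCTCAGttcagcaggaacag
ssc-miR-24-1-5p: gTGCCTACtgagctgaaacacagt
ssc-miR-24-2-5p: gTGCCTACtgagctgatatcagt
ssc-miR-27b-5p: aGAGCTTAgctgattggtgaaca
miR-23a and miR-23b share their seed, as do miR-27a and miR-27b-3p, and the seeds of the miR-23 and miR-27 families are themselves alike. Counting from the 5′ end, miR-23b differs from miR-23a by T19A and a longer 3′ end, and miR-27b-3p differs from miR-27a by C19T alone. The 5p arms of the 2 miR-24 hairpins share their first 16 bases and differ at 6 of the 23 that both have, while the 3p arm is the same from both hairpins, so reads of miR-24-3p cannot be assigned to a cluster.

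Base 19 therefore told the paralogs apart. Only reads that matched the family at every base before it were counted, so reads with a shifted 5′ start or an earlier mismatch were left out. Among such reads of the miR-27 family that reached it, 92.9% carried the T of miR-27b-3p and 7.002% the C of miR-27a, with 0.0542% G and 0.0180% A. In the miR-23 family 65.8% carried the A of miR-23b and 34.2% the T of miR-23a, with 0.0266% G and 0.00336% C. Some sequences were listed under both paralogs. They were 5.67% of the reads of miR-27a but 0.444% of those of miR-27b-3p (39 sequences), and 0.185% of the reads of miR-23a and 0.0994% of those of miR-23b (9 sequences).

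The 8 miRNAs were far from equal in reads in backfat. Together the 8 miRNAs held 5.63% ± 0.587 of all reads (SD over 18 libraries, range 4.67% to 6.69%), and miR-27b-3p alone held 4.75%, which placed it at rank 4 of 240. In counts per 1000000 after TMM scaling (CPM; a small RNA read spans the whole molecule, so no correction for length was made), ssc-miR-27b-3p averaged 47475 ± 7076 CPM (SD, n = 18). ssc-miR-27a followed at 3684 ± 510 CPM, ssc-miR-23b at 2758 ± 671 CPM, ssc-miR-23a at 1492 ± 197 CPM and ssc-miR-24-3p at 909 ± 204 CPM. The rarer arms were miR-24-1-5p at 47.7 ± 11.2 CPM, miR-27b-5p at 27.9 ± 8.19 CPM and miR-24-2-5p at 2.77 ± 1.26 CPM.

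Some steps of that order were free of overlap over the 18 libraries: miR-27b-3p over miR-27a, miR-24-3p over miR-24-1-5p and miR-27b-5p over miR-24-2-5p. The ranges of the other neighbours overlapped. miR-27a exceeded miR-23b in 15 of 18 libraries, miR-23b exceeded miR-23a in 17, miR-23a exceeded miR-24-3p in all 18, and miR-24-1-5p exceeded miR-27b-5p in 17. miR-23a was the steadiest member, with a coefficient of variation of 13.2% and a highest library 1.58 times the lowest, whereas miR-23b varied by 24.3% and 3.24 times. miR-24-2-5p had reads in 16 libraries, 23 to 160 in each, and 0 reads in replicates 1 and 9 of the high class. A floor of 3 counts there allows up to 0.221 and 0.257 CPM, in this case over the library total and without TMM scaling.

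**Figure D1:**
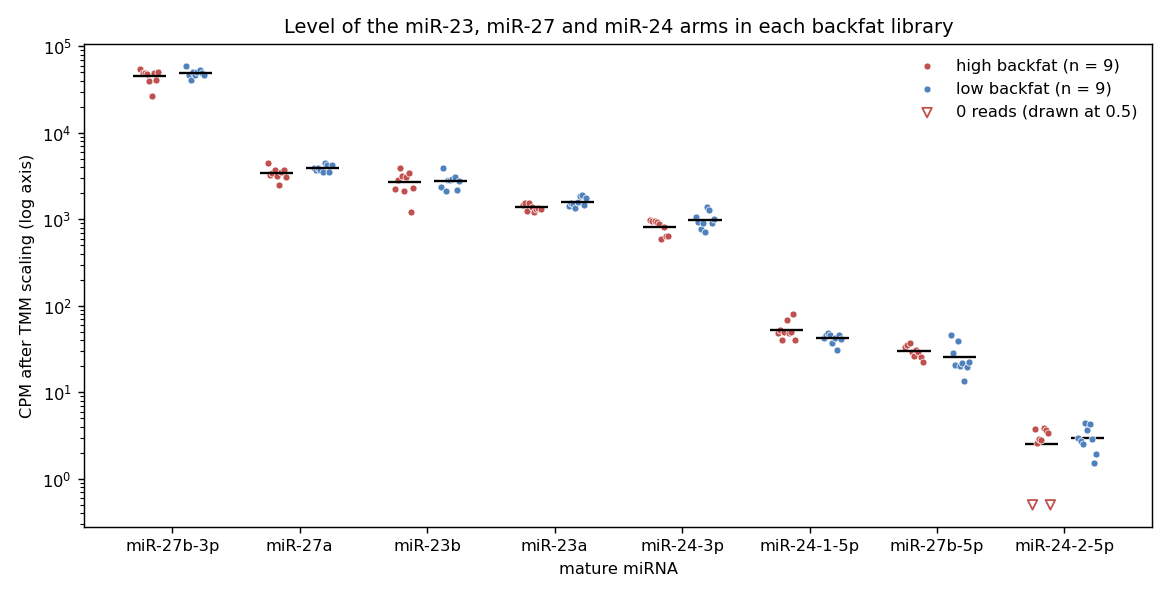
Level of each of the 8 mature miRNAs in CPM on a log axis, high backfat left of low backfat, with a point per library and a bar at the class mean (libraries at 0 included). miR-27b-3p lies above all other members in every library, and the points of the classes overlap for every member.

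Paralog ratios, from reads that only one paralog could claim, were stable in direction. miR-27b-3p exceeded miR-27a by 11.0 to 17.3 times, with a median of 13.6, in 18 of 18 libraries. miR-23b exceeded miR-23a by a median of 1.71 times in a range of 0.902 to 3.12, above 1 in 17 of 18 libraries. The 5p arms of miR-24 ran the other way: the copy next to miR-23a and miR-27a, miR-24-1-5p, exceeded miR-24-2-5p by a median of 16.1 times and by at least 9.99 times in 18 of 18 libraries, the ratio being a lower bound in the 2 libraries without miR-24-2-5p reads. So the cluster with more reads of its miR-23 and miR-27 had fewer reads of its miR-24 5p arm.

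Ratios between cluster mates and between arms were wide. miR-27b-3p exceeded its neighbour miR-23b by 8.60 to 33.7 times (median 17.2), and miR-27a exceeded its neighbour miR-23a by 1.94 to 2.85 times (median 2.31). Of the 2 arms of the miR-27b hairpin, the 3p arm exceeded the 5p arm by a median of 1653 times (range 851 to 4012). miR-24-3p exceeded miR-24-1-5p by a median of 19.3 times (range 8.003 to 41.4), with the 3p reads drawn from both hairpins.

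**Figure D2:**
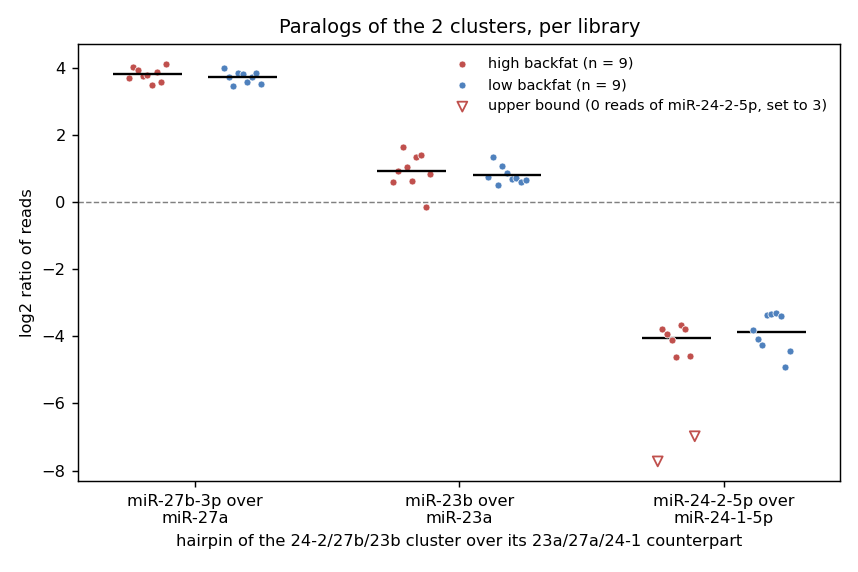
Log2 ratio of reads of each miRNA of the miR-24-2, miR-27b and miR-23b cluster over its counterpart in the miR-23a, miR-27a and miR-24-1 cluster, high backfat left of low backfat, with a point per library, a bar at the class mean of the filled points and a dashed line at equal reads. miR-27b-3p lies above the line in 18 of 18 libraries, miR-23b in 17, and miR-24-2-5p below it in 18, with open triangles as upper bounds.

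High and low backfat were compared to ask whether these miRNAs differ with fat deposition. None of the 8 passed edgeR's quasi-likelihood test at an adjusted p of 0.05 (sex as a covariate), beside 8 of 221 miRNAs tested, or 3.62%, and DESeq2's Wald test also called 0 members. At an unadjusted p under 0.05 there were 3 of 8 members, miR-23a, miR-27a and miR-24-1-5p, beside 54 of 221 miRNAs, or 24.4%. The 5 abundant 3p miRNAs had negative log2 fold changes and 2 of the 3 rarer 5p arms positive ones. The median over the 8 was -0.16, beside -0.03 over all 221, of which 103 were positive and 118 negative.

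miR-23a was measured at 1218, 1351 and 1533 CPM (lowest, median, highest) in high backfat, against 1371, 1558 and 1923 CPM in low backfat. The classes overlapped, although each of the 9 high libraries lay below the median of the low class. Its log2 fold change was -0.23 ± 0.09 (SE, edgeR adjusted p = 0.150). Its neighbour miR-27a had 2500, 3432 and 4441 CPM in high backfat and 3529, 3908 and 4534 CPM in low backfat. High replicate 1 was the only high library above the median of the low class, and high replicate 6 was the lowest. The log2 fold change was -0.21 ± 0.10 (edgeR adjusted p = 0.187).

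miR-24-1-5p, the rare arm from the same cluster, had 39.8, 49.5 and 79.6 CPM in high backfat and 30.6, 42.8 and 48.4 CPM in low backfat. In high backfat 6 of 9 libraries exceeded the highest low library, with high replicates 5 and 8, both castrated males, farthest above it, but replicates 3 and 9 lay below the median of the low class. The log2 fold change was 0.32 ± 0.14 (edgeR adjusted p = 0.169). miR-24-3p, the main arm, had 595, 894 and 982 CPM in high backfat and 719, 927 and 1386 CPM in low backfat, with 3 high libraries below all low libraries. Its log2 fold change was -0.27 ± 0.14 (edgeR adjusted p = 0.259).

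miR-27b-3p had 26709, 49178 and 55028 CPM in high backfat and 41049, 48663 and 59521 CPM in low backfat. High replicate 6, a female, was the lowest library of either class, and the medians were close. The log2 fold change was -0.12 ± 0.12 (edgeR adjusted p = 0.554). miR-23b had 1218, 2889 and 3951 CPM in high backfat and 2139, 2850 and 3902 CPM in low backfat, and a log2 fold change of -0.05 ± 0.18 (edgeR adjusted p = 0.882). The high class enclosed the range of the low class.

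The passenger arm miR-27b-5p had 22.4, 29.4 and 36.9 CPM in high backfat and 13.4, 21.6 and 46.2 CPM in low backfat. The low class enclosed the high class, and the log2 fold change was 0.22 ± 0.20 (edgeR adjusted p = 0.539). miR-24-2-5p had 0, 2.90 and 3.83 CPM in high backfat and 1.51, 2.89 and 4.43 CPM in low backfat, and its log2 fold change of -0.24 ± 0.53 (edgeR adjusted p = 0.811) rests on few reads.

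In bulk tissue, fewer cells of a type and less RNA per cell cannot be told apart. Of 6 fat markers 5 were tested, and their summed level was 389662 to 773818 CPM in high backfat and 493316 to 745534 CPM in low backfat, most of it miR-10b and miR-143-3p, which other tissues also express. Taken singly, 4 of them had negative log2 fold changes and 1 a positive one, and none passed. The largest was that of miR-196a, at -1.01 ± 0.44 (SE, edgeR adjusted p = 0.167). The 4 tested skeletal muscle markers summed to 48.0 to 129 CPM (median 65.2) in high backfat and 78.4 to 210 CPM (median 140.2) in low backfat, with the muscle miRNA miR-206 at a mean of 0.358 CPM. Their log2 fold changes were all negative, from -1.56 ± 0.58 for miR-1 to -0.42 ± 0.19 for miR-499-5p (SE), and each had an unadjusted p under 0.05 but none passed in all 18 pigs. Within castrated males miR-133a-3p and miR-133b passed and were lower in high backfat (-2.14 ± 0.39 and -2.93 ± 0.54, edgeR adjusted p = 0.00423 for both). Over all libraries miR-133a-3p averaged 68.1 CPM and miR-133b 1.73 CPM, so the value of miR-133b rests on few reads. The 2 arms of the endothelial miR-126 summed to 11300 to 41511 CPM in high backfat and 24788 to 37694 CPM in low backfat. Red cell markers (3 of 3 listed) summed to 3082 to 6649 CPM in high backfat and 2603 to 10337 CPM in low backfat, and white cell markers (3 of 4) to 1069 to 3364 CPM in high backfat and 1393 to 3017 CPM in low backfat. The red cell markers differed in sign, with miR-486 at 0.47 ± 0.21, miR-451 at -0.35 ± 0.26 and miR-144 at -0.15 ± 0.26 (log2 fold change, SE), and none passed. The epithelial miR-205 (1 of 5 listed) reached 1.23 to 15.9 CPM in high backfat and 1.95 to 49.2 CPM in low backfat, and the liver miR-122 0 to 8.65 CPM in high backfat and 0 to 42.8 CPM in low backfat. The neural miR-9 had 5.96 to 14.8 CPM in high backfat and 6.95 to 16.0 CPM in low backfat, and the neural miR-124a averaged 0.0236 CPM. The part of these cell types in the members' values was not tested.

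**Figure D3:**
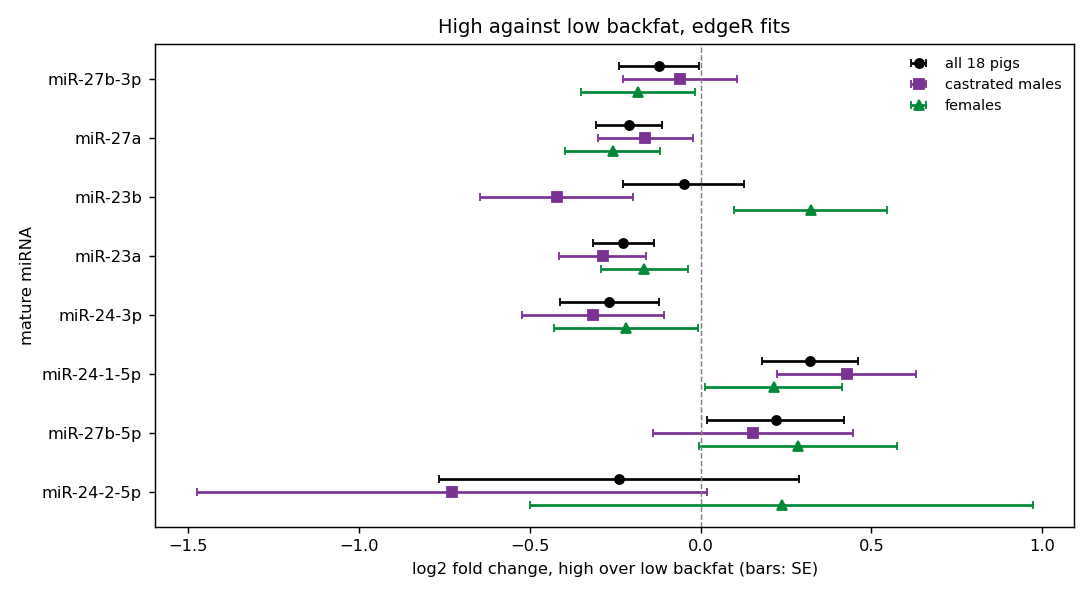
Log2 fold change of high over low backfat with its SE for the 8 mature miRNAs, in all 18 pigs (9 against 9), in castrated males (5 against 4) and in females (4 against 5), from edgeR fits, with a dashed line at no change. No value passed the adjusted threshold, and the values of miR-23b in castrated males (-0.42) and in females (0.32) lie on opposite sides of the line.

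The comparison of castrated males with females found no member past the threshold, beside 0 of 221 miRNAs (0%); at an unadjusted p under 0.05 there were 0 members and 17 of 221 miRNAs (7.69%), and DESeq2's Wald test also called 0. Log2 fold changes of castrated males over females ran between -0.47 ± 0.53 for miR-24-2-5p and 0.08 ± 0.10 for miR-27a (SE). miR-23b averaged 2732 ± 872 CPM in castrated males and 2783 ± 441 CPM in females (SD, n = 9 each). Their means differed by far less than either spread.

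The backfat contrast was then taken within each sex. In castrated males 0 of 8 members passed, beside 9 of 221 miRNAs (4.07%; 22.2% at an unadjusted p under 0.05), and in females 0 of 8, beside 0 of 221 (0%; 9.05% unadjusted). At an unadjusted p under 0.05 there were 2 members in castrated males and 0 in females, and DESeq2's Wald test called 0 members in either sex, with 13 of 221 miRNAs in castrated males and 0 in females. miR-23b had the lowest p-value of the members for the difference between the sexes; the fitted difference of miR-24-2-5p was larger but no larger than its SE (-0.96 ± 1.05). Among castrated males it had 1218, 2152, 2250, 2303 and 3951 CPM in high backfat, against 2801, 2884, 3132 and 3902 CPM in low backfat. Replicate 3 of the high class was the highest of these 9 pigs and the other 4 high pigs were the lowest. Among females it had 2889, 3094, 3145 and 3395 CPM in high backfat, against 2139, 2203, 2380, 2850 and 2948 CPM in low backfat, so that 3 of the 4 high females exceeded every low female.

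The log2 fold change of miR-23b was -0.42 ± 0.22 in castrated males (SE, edgeR adjusted p = 0.267) and 0.32 ± 0.22 in females (adjusted p = 0.630). The difference between the sexes was -0.74 ± 0.32 (edgeR adjusted p = 0.432). No miRNA passed for that difference (0 of 221, 0%), and miR-23b was among the 11.3% with an unadjusted p under 0.05. DESeq2's Wald test called 3 miRNAs for it, none of them a member. Without high replicate 3, the highest of the castrated males, the contrast in castrated males came to -0.68 and passed (edgeR adjusted p = 0.0476). With all libraries kept miR-23b did not pass there, while 9 of 221 miRNAs (4.07%) did. That share belongs to the fit of all libraries and is no background for the call without high replicate 3. The muscle markers miR-133a-3p and miR-133b, given above, fell in castrated males of high backfat with all libraries kept, and their part in the value of miR-23b was not tested. For miR-23a the values were -0.29 ± 0.13 in castrated males and -0.16 ± 0.13 in females, and for miR-24-1-5p they were 0.43 ± 0.20 in castrated males and 0.21 ± 0.20 in females, with differences smaller than their SE.

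Among miRNAs known to restrain fat cell differentiation, a list that leaves out the members, 13 of 18 were tested. Log2 fold changes of high over low backfat were positive for 7 and negative for 6 (median 0.04, beside -0.03 over all 221), and 3 of the 13 passed, beside 8 of 221 miRNAs (3.62%). The neighbours miR-222 and miR-221-5p rose, by 0.89 ± 0.22 and 0.99 ± 0.27 (SE, edgeR adjusted p = 0.0486 for both), and miR-199a-5p fell by 0.38 on the log2 scale (edgeR adjusted p = 0.0486). miR-221-5p is the rare arm of its hairpin, at a mean of 9.05 CPM. The abundant arm miR-221-3p, at 374 CPM and on the same list, did not pass (0.27 ± 0.18, edgeR adjusted p = 0.363). These 3 calls were lost with age as a covariate, without the run AC485 to AC488 and with limma, where no miRNA passed, and over all miRNAs the count was 1 with DESeq2 size factors, 1 with no low-count filter and 0 to 13 when single libraries were left out. Of miRNAs known to promote it, 16 of 19 were tested, 6 were positive and 10 negative (median -0.06), and none passed. The lowest p-values there belonged to miR-146b (1.17 ± 0.35, edgeR adjusted p = 0.0705), miR-103 (0.23 ± 0.10, adjusted p = 0.167) and miR-107 (0.30 ± 0.13, adjusted p = 0.167).

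The reads of each miRNA were spread over many sequence forms. The leading forms are shown because they were often not the annotated ones, and here capitals mark the base at the 3′ end that does not match the hairpin, except in miR-24-1-5p, where they mark the seed of the shifted form.
miR-23b, leading form: atcacattgccagggattaccacT
miR-24-3p, leading form: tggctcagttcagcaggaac
miR-24-3p, second form: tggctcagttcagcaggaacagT
miR-27a, leading form: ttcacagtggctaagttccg
miR-27a, form with an added T: ttcacagtggctaagttccgcT
miR-27b-3p, leading form: ttcacagtggctaagttctg
miR-27b-3p, form with an added T: ttcacagtggctaagttctgcT
miR-24-1-5p, leading form: cGTGCCTActgagctgaaacacagt
miR-23a led with its annotated sequence, at 55.2% of its reads, followed by that sequence with a templated A at the end (18.4%) and without its last base (4.19%). For miR-23b the annotated sequence held 18.8%, and the form 2 bases longer that ends in a mismatched T held 35.1%, between 30.2% and 40.9% in every library. Its paralog differs there: all T-ended mismatch forms together made 42.1% ± 3.18 of the reads of miR-23b and 3.05% ± 0.374 of those of miR-23a (SD, n = 18 libraries), with no overlap.

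Both miR-27 paralogs led with a form 1 base short at the 3′ end. That form held 53.0% of the reads of miR-27b-3p, whose annotated sequence held 26.9%, and 33.9% of those of miR-27a, whose annotated sequence held 17.7%. A form 2 bases short added 18.99% to miR-27a. The annotated sequence with an added T held 10.9% of miR-27a reads and 4.66% of miR-27b-3p reads. For miR-24-3p the annotated sequence held only 7.04% and ranked below the form 2 bases short (42.2%), the form with an added T (23.4%) and the form 1 base short (9.45%). Over the 202 miRNAs with at least 1000 reads, the median share of the annotated sequence was 36.8% (quartiles 15.1% and 54.8%) and that of mismatch forms 13.2%, beside 48.8% for miR-23b, 36.3% for miR-24-3p and 25.5% for miR-27a.

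A shifted 5′ end moves the seed. Such forms were rare among the abundant arms: reads beginning 1 base later made 4.59% ± 0.482 of miR-23b and reads beginning 1 base earlier 4.55% ± 0.917 of miR-24-3p (SD, n = 18), while in miR-23a, miR-27a and miR-27b-3p each shift held under 1%. The exception was miR-24-1-5p, in which 44.3% ± 5.8 of reads began 1 base earlier, between 34.1% and 53.4% in every library. Its leading form, at 18.3%, was one of these, ahead of the form 1 base short at the 3′ end (15.2%) and the annotated sequence (14.97%). For miR-24-2-5p the annotated sequence led at 33.1%, on 1230 reads in all, and for miR-27b-5p the form 1 base short led at 80.1%, followed by the annotated sequence at 8.57%.

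**Figure D4:**
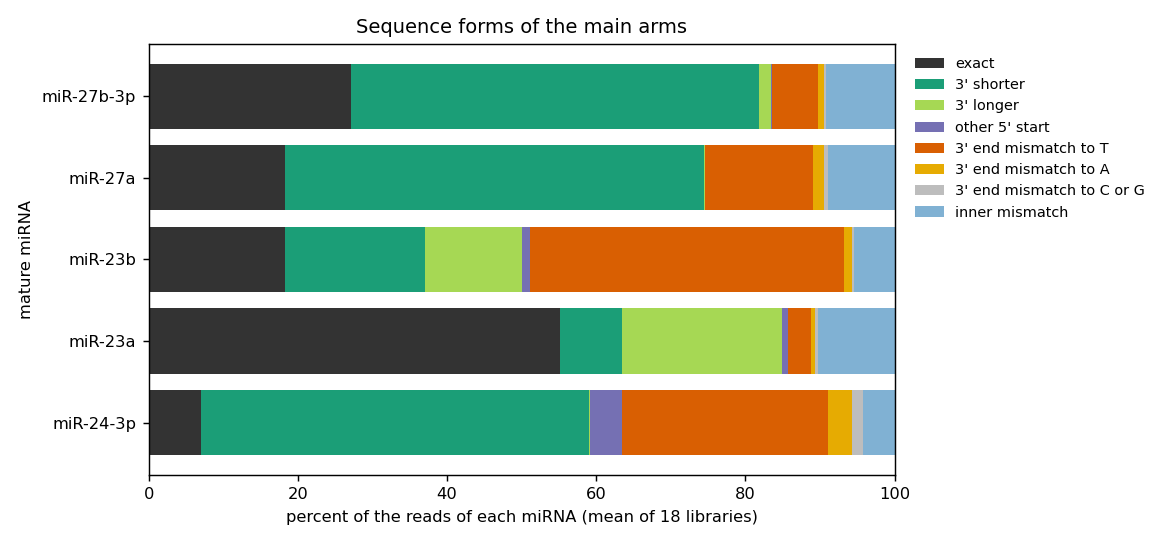
Share of the reads of the 5 main arms in each class of sequence form, as a percent of the reads of that miRNA averaged over 18 libraries. Shorter 3′ ends are the largest class in miR-27b-3p, miR-27a and miR-24-3p, T-ended mismatch forms in miR-23b, and the annotated sequence in miR-23a.

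Mismatches inside the sequence had the same positions in several members. A6C, a change within the seed, made 3.02% of the reads of miR-23a, 1.79% of miR-23b, 2.97% of miR-27a and 3.18% of miR-27b-3p as means over libraries, and C3T made 2.42%, 1.41%, 1.999% and 2.19%. These shares differed widely between libraries: A6C in miR-27b-3p ran from 0.0438% in high replicate 3 and 0.0493% in high replicate 1 up to 6.62% in high replicate 4, and from 0.343% in low replicate 7 up to 6.93% in low replicate 4. In miR-23a the same high replicates 1 and 3 had no A6C reads. For miR-27b-3p the run AC485 to AC488 had 0.362% in high replicate 9. Its low replicates 7, 8 and 9 had 0.343%, 0.382% and 0.350%. The run U074 to U077 held both the lowest share (0.0438%) and the highest (6.93%). miR-27a had 0.0359% in high replicate 3 and 6.34% in low replicate 4, close to the shares of miR-27b-3p there. A read table cannot tell a sequencing error from a changed RNA base.

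No single form of a member passed the comparison of high with low backfat. The members had 1208 entries in the table, of which 465 had enough counts, and 0 of these 465 passed the edgeR test, beside 0 of 7330 entries in the whole table (0%). An unadjusted p under 0.05 was seen for 21 entries, 9 higher and 12 lower in high backfat, or 4.52% of the members' entries, beside 643 entries or 8.77% of the whole table. DESeq2's Wald test called 5 entries of the members, 1 of them higher, and 258 in all. The lowest p-values belonged to 3 lengthened forms of miR-27a. Its form with an added T, shown above, had 220, 302 and 359 CPM (lowest, median, highest) in high backfat and 309, 452 and 723 CPM in low backfat. Only the upper end of the high class overlapped the low class. The log2 fold change was -0.64 ± 0.17 (SE, edgeR adjusted p = 0.158), beside -0.61 ± 0.18 for the form with 2 added T bases (adjusted p = 0.205) and -0.62 ± 0.19 for the form with an added C (adjusted p = 0.218).

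Shares of forms within a miRNA, which are taken over its own reads, and the ratios were compared between classes in a family of 50 exact two-sided permutation tests of 9 against 9 libraries. None passed an adjusted p of 0.05, and the lowest adjusted value was 0.0979. T-ended mismatch forms held 10.03%, 12.1% and 16.0% of miR-27a reads (lowest, median, highest) in high backfat and 11.8%, 15.8% and 23.3% in low backfat, a mean difference of -3.96 percentage points (exact p = 0.00740, adjusted p = 0.0979). Only 1 of 9 high libraries exceeded the median of the low class. In miR-23a they held 2.31%, 2.89% and 3.10% in high backfat and 2.55%, 3.30% and 3.74% in low backfat, a difference of -0.43 points (exact p = 0.00917, adjusted p = 0.0979), with no high library above the median of the low class.

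The paralogs of the other cluster had values in the opposite order. T-ended mismatch forms held 39.2%, 44.9% and 47.9% of miR-23b reads in high backfat and 36.2%, 40.4% and 42.5% in low backfat, a difference of 3.88 points (exact p = 0.00580, adjusted p = 0.0979). They held 4.83%, 6.36% and 8.56% of miR-27b-3p reads in high backfat and 4.62%, 5.96% and 6.21% in low backfat, a difference of 0.82 points (exact p = 0.0401, adjusted p = 0.250). In both miRNAs 8 of 9 high libraries exceeded the median of the low class. miR-24-3p had 26.2% ± 3.32 in high backfat and 29.0% ± 4.76 in low backfat (SD, n = 9 each, exact p = 0.175, adjusted p = 0.510). The difference between paralogs was not tested.

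Within the 4 runs of library codes the T-ended share of miR-27a was lower in high backfat each time, by -7.59, -3.82, -2.79 and -0.85 points (AC485 to AC488, U074 to U077, U134 to U139, U966 to U969), and that of miR-23a by -0.53, -0.37, -0.42 and -0.41 points. For miR-23b the differences were 1.75, 4.46, 9.38 and -2.36 points, and for miR-27b-3p 0.66, 0.13, 1.55 and -0.23 points, so that the run U966 to U969 went against the pooled value in both. A run held 1 to 4 libraries of a class. The count of tests that passed was 3 without high replicate 1 and 3 without low replicate 1: miR-23b and miR-27b-3p T-ended shares and the ratio of miR-24-1-5p to miR-27a without the first, and T-ended shares of miR-23a and miR-27a and the longer forms of miR-27a without the second.

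**Figure D5:**
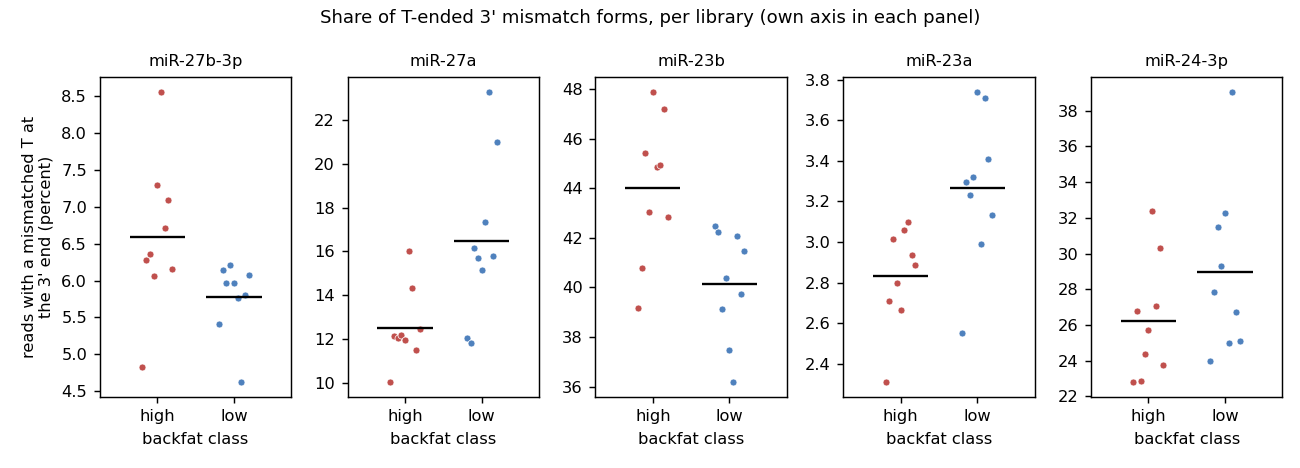
Percent of the reads of each main arm that end in a mismatched T, with a point per library, high backfat left of low backfat, bars at the class means and an axis of its own in each panel that does not start at 0. The class mean is higher in high backfat for miR-27b-3p (6.59% against 5.77%) and miR-23b (44.0% against 40.1%) and lower for miR-27a (12.5% against 16.5%), miR-23a (2.83% against 3.26%) and miR-24-3p (26.2% against 29.0%), and none passed the adjusted threshold.

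Other measures of the family with low unadjusted values concerned miR-24 and miR-27a. The log2 ratio of miR-24-1-5p to miR-27a, its cluster mate, was -5.95 ± 0.385 in high backfat and -6.47 ± 0.274 in low backfat (SD, n = 9 each), a difference of 0.52 (exact permutation p = 0.00325, adjusted p = 0.0979), with 9 of 9 high libraries above the median of the low class. Within runs that difference was 0.44, 0.01, 0.92 and 0.21, in the order of runs above. For miR-24-1-5p over miR-24-3p it was 0.56 (exact permutation p = 0.0142, adjusted p = 0.118) and within runs 0.75, -0.28, 1.05 and 0.22. Forms of miR-24-3p with another 5′ start and no mismatch held 4.73% ± 0.655 in high backfat and 3.85% ± 0.921 in low backfat (exact p = 0.0297, adjusted p = 0.212).

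Whether members rose and fell together from pig to pig was examined over 28 pairs of log2 CPM in 18 libraries, with permutation tests of 100000 resamples. By Pearson's r 5 pairs passed an adjusted p of 0.05 and by Spearman's rho none did. The 3 highest joined miR-23a, miR-27a and miR-24-3p. They were 0.72 for miR-23a with miR-24-3p (permutation p = 0.000840, rho 0.58, p = 0.0128), 0.71 for miR-23a with miR-27a (permutation p = 0.000900, rho 0.63, p = 0.00663) and 0.70 for miR-24-3p with miR-27a (permutation p = 0.00107, rho 0.69, p = 0.00233). The adjusted p was 0.00999 for each r and 0.0894, 0.0619 and 0.0613 for the rho values in that order. After each library was centred on its run, r was 0.74, 0.74 and 0.67. miR-24-1-5p, the miR-24 arm of the same cluster as miR-23a and miR-27a, had negative values. They were r = -0.42 with miR-23a, -0.25 with miR-27a and -0.40 with miR-24-3p (permutation test, adjusted p = 0.278, 0.551 and 0.287). The most negative pairs were miR-23b with miR-24-1-5p (r = -0.61, rho -0.27) and miR-23a with miR-27b-5p (r = -0.58, rho -0.53), each with a permutation adjusted p of 0.0507 for r.

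miR-27b-3p correlated with miR-24-3p at r = 0.63 (permutation p = 0.00371, adjusted p = 0.0260; rho 0.65, p = 0.00438, adjusted p = 0.0613) and with miR-27a at r = 0.68 (permutation p = 0.00516, adjusted p = 0.0289; rho 0.44, p = 0.0648, adjusted p = 0.302). Centred on runs these were 0.57 and 0.65. For each pair, the 2 libraries farthest from the median of a single miRNA of the pair were then left out, so the libraries differed between pairs. The 5 values of r were 0.49, 0.62, 0.49, 0.54 and 0.33 and no pair passed over the 16 that remained. Leaving out extremes narrows the range and leaves fewer libraries, so the lost calls cannot be laid to particular libraries. The value of r stayed above 0.49 in all but miR-27a with miR-27b-3p. The cluster mates miR-27b-3p and miR-23b showed r = 0.11 (permutation p = 0.637, adjusted p = 0.776; rho 0.21, p = 0.412, adjusted p = 0.679), and 0.03 centred on runs and -0.08 without the 2 farthest libraries. The 2 arms of the miR-27b hairpin showed r = 0.06 (permutation p = 0.820, adjusted p = 0.850; rho 0.25, p = 0.307, adjusted p = 0.538), and -0.07 centred on runs and 0.06 without the 2 farthest libraries.

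The miRNAs outside the families with the most similar levels across the 18 libraries are given as a description, by Pearson's r of log2 CPM among 168 candidates. For miR-27b-3p they were miR-126-5p (0.84), miR-20a (0.83) and miR-152 (0.83). For miR-27a they were miR-152 (0.74), miR-195 (0.72) and miR-199a-3p (0.71), and for miR-23a miR-195 (0.80), miR-19b (0.66) and miR-152 (0.65). miR-24-3p was nearest to miR-708-5p (0.70), miR-195 (0.65) and miR-29b (0.65), and miR-23b to miR-708-5p (0.67), miR-574 (0.61) and miR-30b-5p (0.59). Spearman's rho was 0.67, 0.53 and 0.28 for miR-27b-3p in the order given, and 0.39, 0.50 and 0.50 for miR-27a. For miR-23a it was 0.70, 0.51 and 0.59, for miR-24-3p 0.57, 0.59 and 0.70, and for miR-23b 0.62, 0.47 and 0.54. All these points share library depth and composition.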

How the data were processed

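The authors deposited raw read counts (whole numbers) for the sequence variants found in extended hairpins, and a second table, whose deposited signal is the count over a size factor. Comparing both tables gave factors of 0.464 to 1.93, with 1 for each library. The submitters' processing notes name Bowtie 0.12.7, DESeq2 1.4.5, HTSeq and Sscrofa10.2. Settings for trimming and for mismatches were not given in the sources used here. In both tables, 2 columns could be tied to no library and were left out. Sequences are those of the deposited table, and no genomic coordinates are given, since no genome of that build was at hand.

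Counts were summed per mature miRNA, each sequence once at its highest listing; a read that fits 2 paralogs counts under both. edgeR's quasi-likelihood test used TMM, filterByExpr (minimum count 10) and Benjamini-Hochberg adjustment over all miRNAs (221) or entries (7330) tested, with a threshold of 0.05. Sex or class was an additive covariate, and contrasts within a sex came from a model with the 4 combinations of sex and class, which share 1 estimate of spread. p-values measure the spread between pigs. SE came from the F statistic, and a prior count of 2 went into log2 CPM. A form's class came from its position and mismatches; the mismatch number equalled the table's category for 1046 of 1051 forms. Ratios used unshared reads and a floor of 3 counts. Paralog positions count from 1 at the 5′ end. Scripts were tested on simulated data. Alternatives were DESeq2 size factors, the Wald test of DESeq2, limma after log2 transformation of the deposited signal (pseudocount 1), other filters, covariates or listings, unshared reads, mismatch forms left out, and leaving out each library or the run AC485 to AC488.

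Named were all members, their leading forms, the 3 forms with the lowest p, list members past the threshold (with the other arm of miR-221) or else the 3 with the lowest p, and the 3 most similar miRNAs (mean of at least 10 CPM) per main arm. The members and lists were chosen with earlier results of these data known. Tools were R 4.3.3, edgeR 4.0.16, limma 3.58.1, DESeq2 1.42.0, Python 3.11.15, SciPy 1.17.1, NumPy 2.4.6, Matplotlib 3.10.9 and pandas 2.3.3.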

Additional observations from a re-analysis of the deposited data

Results flagged for a closer look

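Each class was checked for a library that stood apart in 42 sets of values, and 2 were found, both in low replicate 7, a castrated male of the run AC485 to AC488; chance flags about 1 in 20 sets. The T-ended mismatch share of miR-27b-3p was 4.62% there, against 5.42% to 6.21% in the other low libraries. The log2 ratio of miR-24-1-5p to miR-27a was -7.06 there, against -6.64 to -6.21 in the other low libraries.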

How the results depend on the processing

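No member passed between the backfat classes, between castrated males and females, within females or for the difference between the sexes under any alternative run, including each library left out. Within castrated males the count was 0 to 1 over left-out libraries (miR-23b without high replicate 3). With all libraries kept it was 0, beside 9 of 221 miRNAs (4.07%). For single forms it was 5 with DESeq2's Wald test and 0 otherwise. Shares and ratios past the threshold numbered 0 to 3 over left-out libraries. Correlated pairs numbered 0 without the 2 farthest libraries and up to 7 in the other settings, and centred on runs miR-24-3p with miR-27b-3p had an adjusted p of 0.0899. The sign of the fold change of miR-23b between the classes turned, to 0.0025 with limma and 0.037 with all listings summed, and ran from -0.15 to 0.052 over left-out libraries; the cause was not tested. The other members kept their sign. miR-24-2-5p had no value with a minimum mean of 10 CPM, and T-ended shares none with mismatch forms left out. No paired analysis was possible because each library comes from its own pig and the replicate numbers only name samples. Depth limits miR-24-2-5p, at 160 reads or fewer per library.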
